A study of Mus musculus with 8 samples.

Results

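The genes described here encode the granule proteins and alarmins of neutrophils: myeloperoxidase (Mpo), neutrophil elastase (Elane), proteinase 3 (Prtn3), cathepsin G (Ctsg), lactoferrin (Ltf), cathelicidin (Camp), neutrophilic granule protein (Ngp), lipocalin 2 (Lcn2), and the calcium-binding alarmins S100a8 and S100a9. These 10 genes, of 21631 annotated genes on the 20 chromosomes examined, were chosen by name, and each was examined over its gene body plus 20 kb on each side. Their histone marks were mapped by CUT&RUN (an antibody against the mark tethers a nuclease, which releases the marked chromatin) in haematopoietic stem cells (HSCs) sorted as Lin-cKit+Sca1+CD48-CD150+ from bone marrow of C57BL/6 mice aged about 10 months. The stem cells were either wild type (WT) or lacked the retinoid X receptors RXRα and RXRβ (RXRKO), the nuclear receptors that dimerise with retinoic acid receptors and other ligand-gated partners. RXRKO mice carried the blood-wide Vav-driven Cre and loxP-flanked Rxra and Rxrb; the genotype label gives the WT samples as VavCre+ too, whereas the growth protocol describes the WT mice as loxP-flanked without naming Cre, so whether the controls carried Cre is not settled by the labels.

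Neutrophils store their antimicrobial proteins in granules that form in order as the cell matures. Primary granules, filled at the promyelocyte stage, hold myeloperoxidase, which makes hypochlorous acid, and the serine proteases elastase, proteinase 3 and cathepsin G. Secondary granules follow with lactoferrin and lipocalin 2, which withhold iron from microbes, and with cathelicidin and neutrophilic granule protein, while S100a8 and S100a9 pair as calprotectin, which fills the cytosol of mature neutrophils. H3K4me1 lies over enhancers and around promoters, H3K4me3 over active or poised gene starts, and H3K27ac over active enhancers and promoters. A stem cell lies many divisions upstream of the neutrophil. The marks describe these loci in the sorted cells, and expression of the genes was not measured here.

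H3K4me1 was measured in 2 libraries of each genotype, and H3K4me3 and H3K27ac in 1 library of each genotype, so only H3K4me1 allowed a test. Each assay used 7500 HSCs pooled from 4 or 5 mice, and nothing in the labels says whether the 2 replicates were separate pools, so p-values measure the spread between these libraries. The values are the authors' called peaks: between 147698 and 165128 per H3K4me1 library, 47835 (WT) and 58136 (RXRKO) for H3K4me3, and 74287 (WT) and 64849 (RXRKO) for H3K27ac. Read depth was not in the files, but the genome background in fragments per position, recovered from each peak's fold and p-value, was 5.62 and 7.37 in the WT and 6.53 and 12.6 in the RXRKO H3K4me1 libraries. For H3K4me3 it was 4.12 in WT and 6.68 in RXRKO, and for H3K27ac 4.77 in WT and 4.19 in RXRKO; its part in the results was not tested. In Rxrb, a stretch of 781 bp (mm10 chr17:34033516-34034296) was covered by H3K4me1 peaks in both WT libraries and in neither RXRKO library; in Rxra the longest such stretch was 76 bp. H3K4me3 was called at the start of 13 of 13 stem cell marker genes in both genotypes, at 3 of 9 mature neutrophil markers (Mmp9, Padi4 and Csf3r), and at 1 of 8 genes silent in blood (Pou5f1). The shares over all genes were 67.1% in WT and 67.7% in RXRKO. It was called at 4 of 5 megakaryocyte, 3 of 6 erythroid and 2 of 6 B cell markers in both genotypes. For monocyte markers it was 2 of 7 in WT and 4 in RXRKO, and for T cell markers 1 of 6 and 2. H3K27ac marked 10 of 13 stem cell marker starts in WT and 8 in RXRKO, against 61% and 57.9% of all genes.

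Most of the 10 gene starts carried no called mark. A start counted as marked where a peak lay within 1 kb of it. H3K4me1 marked 3 of the 10 starts in each WT library and in RXRKO replicate 1, and 4 in RXRKO replicate 2, where the shares over all genes were 68.6% and 71.3% in WT and 68.2% and 71.4% in RXRKO. H3K4me3 marked 2 starts in each genotype, against 67.1% of all genes in WT and 67.7% in RXRKO. H3K27ac marked 2 in WT and 1 in RXRKO, against 61% and 57.9% of all genes. Of the 21631 genes, 4357 were not among the RefSeq starts used here and took the end with more H3K4me3, or both ends, so these shares rest in part on H3K4me3 itself; over the 17274 genes with a RefSeq start, as all 10 have, H3K4me3 marked 67.1% in WT and 67.7% in RXRKO. Ltf was marked in all 8 libraries. Mpo was marked by H3K4me1 in 4 of 4 libraries and by H3K27ac in WT, and Prtn3 by H3K4me1 in 4 of 4 libraries and by H3K4me3 in both genotypes. Lcn2 was marked in the RXRKO replicate 2 H3K4me1 library alone. The starts of Elane, Ctsg, Camp, Ngp, S100a8 and S100a9 had no peak in any of the 8 libraries.

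The promoters of the 4 primary granule genes are shown because a peak was called at 2 of these starts (Mpo and Prtn3) and at neither of the others (Elane and Ctsg), and because all 4 hold the letters GAGGAA, the core bound by the myeloid factor PU.1, which are in capitals. They are RefSeq sequences of build GRCm38.p6 from 250 bases before to 50 bases after the start, on the gene's own strand (Mpo, chr11:87793534-87793833, plus; Elane, chr10:79886062-79886361, plus; Prtn3, chr10:79879417-79879716, plus; Ctsg, chr14:56102525-56102824, minus).
Mpo: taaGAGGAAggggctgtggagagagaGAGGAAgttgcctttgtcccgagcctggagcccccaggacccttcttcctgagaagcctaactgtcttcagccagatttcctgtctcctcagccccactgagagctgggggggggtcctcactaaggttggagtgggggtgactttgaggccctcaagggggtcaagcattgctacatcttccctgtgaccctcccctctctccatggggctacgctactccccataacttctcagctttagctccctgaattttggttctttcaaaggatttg
Elane: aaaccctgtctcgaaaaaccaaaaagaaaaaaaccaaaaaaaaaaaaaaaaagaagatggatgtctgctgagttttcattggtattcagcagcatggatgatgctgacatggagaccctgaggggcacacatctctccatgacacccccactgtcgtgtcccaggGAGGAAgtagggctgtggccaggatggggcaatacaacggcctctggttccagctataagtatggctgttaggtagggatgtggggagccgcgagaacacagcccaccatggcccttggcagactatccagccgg
Prtn3: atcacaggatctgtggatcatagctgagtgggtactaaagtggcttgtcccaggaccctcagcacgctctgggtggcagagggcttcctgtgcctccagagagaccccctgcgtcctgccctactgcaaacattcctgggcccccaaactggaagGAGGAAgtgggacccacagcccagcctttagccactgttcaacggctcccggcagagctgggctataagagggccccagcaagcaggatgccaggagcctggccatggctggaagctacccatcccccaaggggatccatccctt
Ctsg: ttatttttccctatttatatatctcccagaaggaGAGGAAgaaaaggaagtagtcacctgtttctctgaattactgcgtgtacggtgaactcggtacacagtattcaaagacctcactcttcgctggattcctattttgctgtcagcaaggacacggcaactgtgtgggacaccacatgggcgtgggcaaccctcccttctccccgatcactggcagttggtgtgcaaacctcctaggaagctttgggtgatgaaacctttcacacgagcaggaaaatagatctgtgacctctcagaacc
The Ltf promoter (chr9:111019042-111019341, plus) is shown because this start was marked in every library. Its capitals give the nuclear receptor half-site AGGTCA, the letters that RXR and its partners recognise.
Ltf: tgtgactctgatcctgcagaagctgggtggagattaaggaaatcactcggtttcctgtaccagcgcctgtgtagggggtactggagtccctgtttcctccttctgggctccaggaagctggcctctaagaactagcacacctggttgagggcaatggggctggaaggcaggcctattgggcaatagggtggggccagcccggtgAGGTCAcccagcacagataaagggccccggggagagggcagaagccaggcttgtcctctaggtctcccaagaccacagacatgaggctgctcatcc

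Over both strands, GAGGAA (or TTCCTC) was found in 7 of the 10 promoters, and in 27.2% of 17274 RefSeq promoters of the same length. Counting the start base as 0, it began 247 and 224 bases before the start in Mpo, 85 before in Elane, 95 before in Prtn3 and 216 before in Ctsg; the other matches were in Ltf, Lcn2 and S100a8. The C/EBP letters TTGCNNAA were in none of the 4 primary granule promoters but in those of Ltf, Ngp, Lcn2 and S100a9, 4 of 10 against 10.3% of all promoters. The half-site AGGTCA (or TGACCT) was in 2 of 10, Ltf (beginning 46 bases before the start) and Ctsg (35 bases after it), against 14.4% of all promoters. The RUNX letters TGTGGT (or ACCACA) were in Ctsg, Ltf and S100a9 (14.9% of all promoters) and TATAAA (or TTTATA) in Ctsg, S100a8 and S100a9 (13.4%). A match describes letters and not a bound site.

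Mpo (Entrez gene 17523, mm10 chr11:87793784-87804412, plus strand) carried an H3K4me1-marked start with H3K27ac in WT alone. The H3K4me1 peak over its start had a fold over local background of 4.44 and 4.74 in WT and 4.50 and 4.67 in RXRKO, with its summit 444, 446, 352 and 187 bp upstream of the start in the same order. A further peak inside the gene (region chr11:87794558-87795510), centred 1250 bp downstream of the start, had folds of 2.87 and 3.51 in WT and 2.51 and 2.22 in RXRKO. Both regions also lie over the annotated noncoding gene Gm34064. No H3K4me3 peak overlapped the start or the gene body in either genotype; the H3K4me3 peaks of the window lay in the neighbours Tspoap1 and Lpo (lactoperoxidase). In the WT H3K27ac library 3 peaks were called, at chr11:87793301-87793729, chr11:87795001-87795416 and chr11:87808424-87808672, with pileups of 24, 22 and 16 fragments and folds of 3.93, 3.60 and 2.95. All 3 overlapped H3K4me1 regions called in 4 of 4 libraries. The RXRKO H3K27ac library had no peak in the Mpo window, so the covered length was 1094 bp in WT and 0 in RXRKO. Their mean is under the minimum of 1000 bp set for a log2 difference, and none is given.

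Prtn3 (gene 19152, chr10:79879667-79883174, plus) and Elane (gene 50701, chr10:79886312-79888216, plus) lie next to each other with their starts 6645 bp apart, and their windows share 36863 bp, so most peaks belong to both. An H3K4me3 peak lay over the Prtn3 gene body (chr10:79880489-79882628 in WT and chr10:79880476-79882930 in RXRKO), with its summit 2352 and 2335 bp downstream of the start. It held 302 fragments in WT and 545 in RXRKO. Its fold was 5.21 and 4.43, since the local background was 57.2 fragments in WT and 122 in RXRKO, 13.9 and 18.3 times the genome background. The H3K4me1 peaks over the Prtn3 start stood on a similarly raised background, with folds of 1.91 and 1.86 in WT and 1.80 and 1.62 in RXRKO and pileups of 121, 167, 115 and 206 fragments. Elane had no peak within 1 kb of its start in any library. The nearest region, chr10:79884953-79885297, centred 1187 bp upstream of it, ended just outside that 1 kb, so Elane counted as unmarked by a narrow margin. This region was called for H3K4me1 in 4 of 4 libraries and for H3K27ac in WT alone. Its H3K4me1 folds were 2.86 and 2.51 in WT and 2.58 and 2.34 in RXRKO.

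In the Prtn3 and Elane windows the H3K27ac peaks differed between the 2 libraries in the same direction as at Mpo. Each window had 2271 bp covered in WT and 597 bp in RXRKO. The log2 difference in covered length, RXRKO minus WT, was -0.95 in both windows, which count the same peaks. Only 0.272% of the 15449 genes measured had a lower difference, and 1.84% were at least 1.5 times lower in RXRKO. Of 6 WT peaks in the Prtn3 window, 5 had no overlapping RXRKO peak: those at the start of Plppr3, over the Prtn3 body, upstream of Elane, at chr10:79889322-79889817 and in Med16. The peak 1694 bp upstream of Prtn3 was called in both genotypes, with 52 fragments in WT and 42 in RXRKO. One RXRKO peak, chr10:79893326-79893604, had no WT counterpart. With 1 library per genotype this difference has no replicate check. With windows of 50 kb on each side the log2 difference was -0.383 at Prtn3 and -0.299 at Elane, under 1.5 times. H3K4me3 at Prtn3 covered 4682 bp in WT and 5633 bp in RXRKO (log2 difference 0.10), and this turned to -0.040 at 50 kb.

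Ctsg (gene 13035, chr14:56099885-56102574, minus) had no peak of any mark over its start or body. Its window held H3K4me1 in 4 of 4 libraries at chr14:56084242-56085665, over the start of the mast cell and basophil protease gene Mcpt8, with folds of 5.81 and 7.05 in WT and 5.91 and 6.45 in RXRKO. A weaker region, chr14:56092718-56093483, between the 2 genes, had folds of 2.72 and 3.34 in WT and 3.58 and 3.01 in RXRKO. No H3K4me3 or H3K27ac peak was called anywhere in the Ctsg window.

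**Figure D1:**
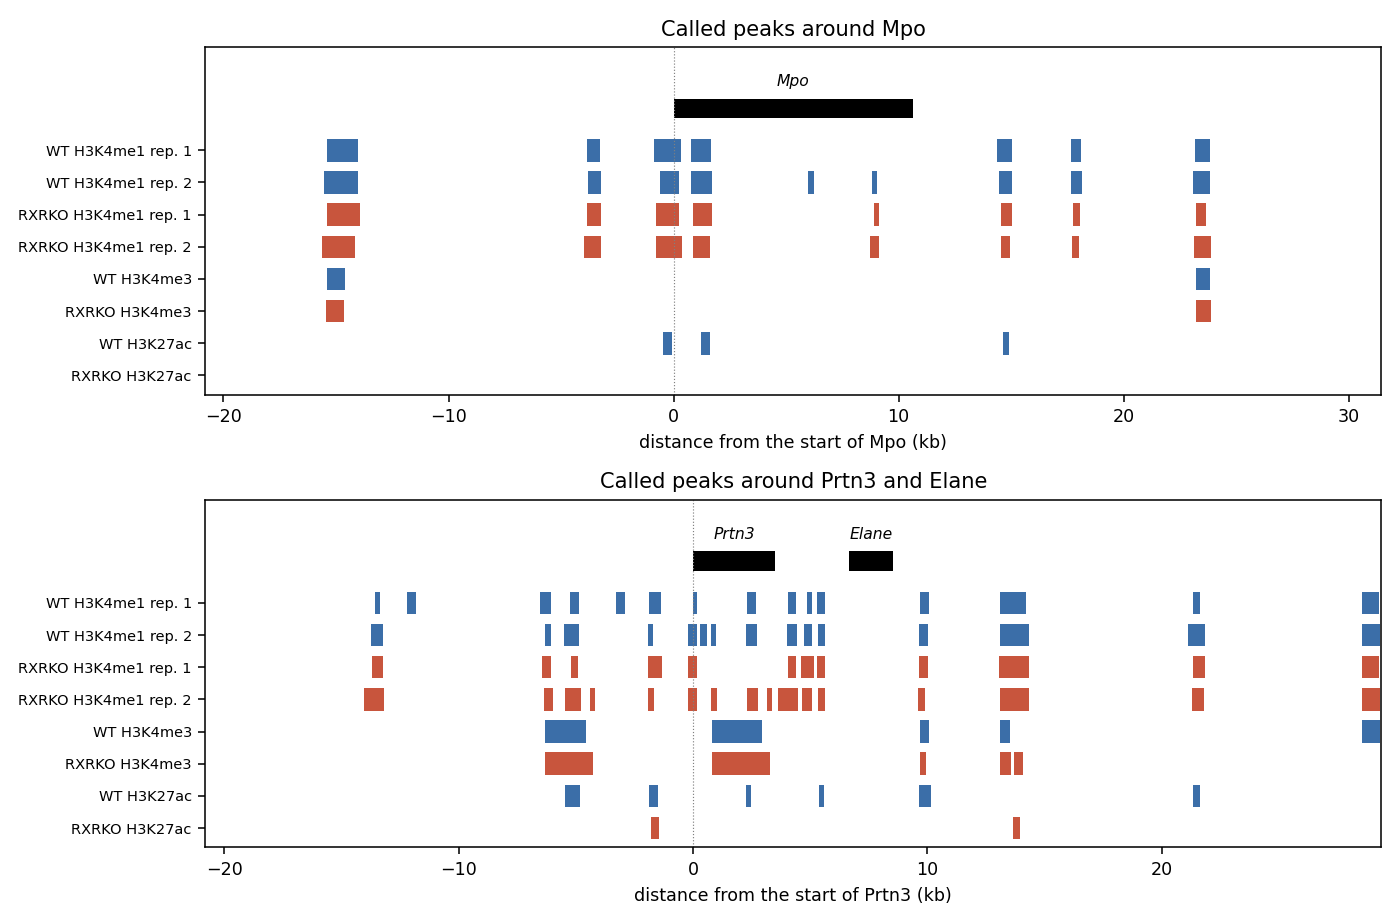
Peaks called around Mpo (top) and around Prtn3 and Elane (bottom), by distance in kb from the start of Mpo or Prtn3 in the direction of transcription; each row is 1 library, bars are called peaks (blue WT, red RXRKO) and black bars are the genes. The H3K4me1 rows match closely between genotypes, the RXRKO H3K27ac row is empty around Mpo, and no bar touches the start of Elane.

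Ltf (gene 17002, chr9:111019292-111042766, plus) was the only one of the 10 genes whose start carried all 3 marks, and it did so in both genotypes. The H3K4me1 peak at its start had folds of 9.94 and 10.3 in WT and 10.1 and 9.59 in RXRKO, with 133, 186, 157 and 257 fragments, and its fold was above that of at least 97.2% of the peaks in each library. The H3K4me3 peak there was weak, with 17 fragments and a fold of 3.52 in WT and 36 fragments and a fold of 4.82 in RXRKO. H3K27ac at the start held 37 fragments (fold 4.98) in WT and 30 (fold 4.62) in RXRKO. A second region, chr9:111045771-111047083, centred 27135 bp from the start, beyond the end of Ltf and before the chemerin receptor gene Ccrl2, carried all 3 marks in all 8 libraries. Its H3K27ac peak held 99 fragments in WT (fold 7.28) and 95 in RXRKO (fold 7.40), more than at the start of Ltf. Another region, upstream, chr9:111011341-111012818, centred 7212 bp before the start, carried H3K4me1 in 4 of 4 libraries, H3K27ac in both genotypes and H3K4me3 in RXRKO alone. That RXRKO H3K4me3 peak was weak, with 20 fragments and a fold of 2.73. H3K27ac over the whole window covered 4453 bp in WT and 5082 bp in RXRKO (log2 difference 0.24).

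Camp (gene 12796, chr9:109847377-109849456, minus) lies in the same part of chromosome 9 but had no peak over its start or body. Its window held 2 regions only, each called in all 8 libraries. One covered the start of Nme6, which encodes a nucleoside diphosphate kinase family member. The other, chr9:109862364-109863578, centred 13515 bp upstream of Camp and overlapping the annotated noncoding gene Gm39427, had H3K4me3 folds of 15.1 in WT and 17.6 in RXRKO. Those folds were above 98.3% and 99.6% of the H3K4me3 peaks of their libraries. H3K27ac there was moderate, with folds of 4.68 and 4.43.

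Ngp (gene 18054, chr9:110419808-110423012, plus) likewise lacked a peak at its start, but a region centred 2800 bp upstream, chr9:110416529-110417487, carried H3K4me1 in 4 of 4 libraries. Its H3K4me1 folds were 8.04 and 5.76 in WT and 6.96 and 6.38 in RXRKO. H3K27ac was called there in both genotypes, with 25 fragments in WT (fold 3.71) and 31 in RXRKO (fold 4.26), and H3K4me3 in RXRKO alone, with 24 fragments. A region between genes, chr9:110411456-110411905, was also called for H3K4me1 in 4 of 4 libraries, with folds of 5.37 and 4.72 in WT and 4.61 and 3.99 in RXRKO. Peaks of all 3 marks lay at the start of the phosphatase gene Ptpn23 and in Klhl18.

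Lcn2 (gene 16819, chr2:32384637-32387739, minus) had marks at its neighbours rather than at its own start. The starts of 1110008P14Rik and of the prostaglandin E synthase gene Ptges2 carried all 3 marks in both genotypes. At the start of Lcn2 itself, RXRKO H3K4me1 replicate 2 had a pair of narrow peaks of 33 and 37 fragments, with folds of 2.50 and 2.79, and no other library had one. A region at chr2:32404648-32405147, centred 17158 bp upstream, was called for H3K4me1 in 4 of 4 libraries. There H3K4me3 (20 fragments) and H3K27ac (17 fragments) were called in WT alone. The fewest fragments at which a peak on genome background was called were 17 in the RXRKO H3K4me3 library and 13 in the RXRKO H3K27ac library, among the peaks sampled to recover pileups.

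**Figure D2:**
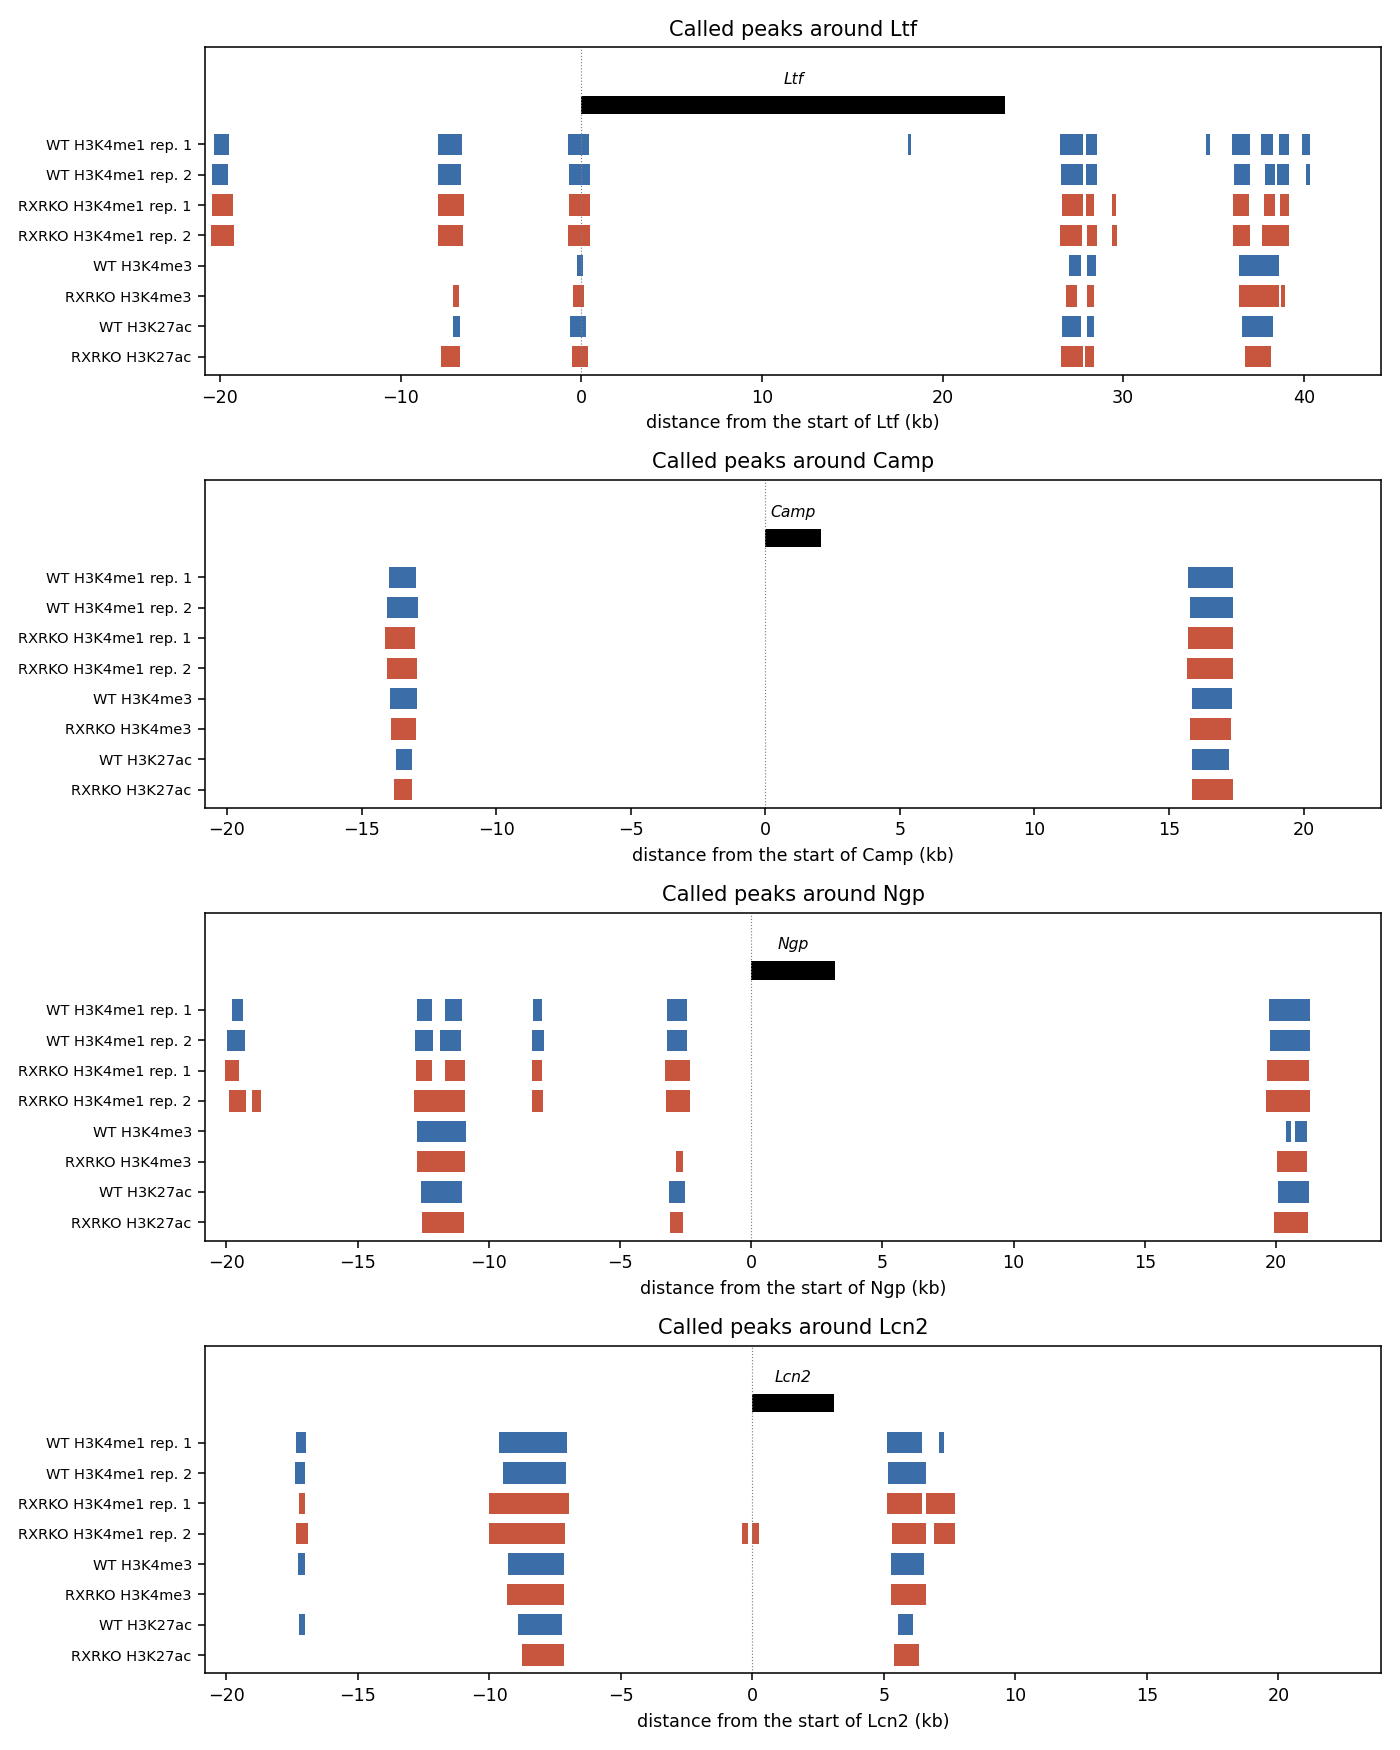
Peaks called around the secondary granule genes Ltf, Camp, Ngp and Lcn2, by distance in kb from each gene's start in the direction of transcription; each row is 1 library, bars are called peaks (blue WT, red RXRKO) and black bars are the genes. Ltf has peaks at its start in all 8 libraries and again about 27135 bp downstream, whereas the starts of Camp and Ngp are bare.

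S100a8 (gene 20201, chr3:90669071-90670034, plus) and S100a9 (gene 20202, chr3:90692630-90695721, minus) had no peak over either gene body in any library. No H3K27ac peak was called in their windows in either genotype, and the only H3K4me3 peak was at chr3:90710130-90710345 in RXRKO, with 17 fragments and a fold of 2.34. H3K4me1 was called in 4 of 4 libraries at 3 regions. The first, chr3:90659442-90659895, lies 9402 bp upstream of S100a8 (distances to centres) and had folds of 2.27 and 2.87 in WT and 3.19 and 3.60 in RXRKO. The second, chr3:90678520-90679463, lies between the 2 genes and had folds of 4.68 and 3.58 in WT and 4.91 and 4.63 in RXRKO. Both windows hold this region, since they share 17405 bp. The third, chr3:90709770-90710443, lies 14386 bp upstream of S100a9 and had folds of 3.47 and 6.45 in WT and 3.45 and 5.66 in RXRKO.

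**Figure D3:**
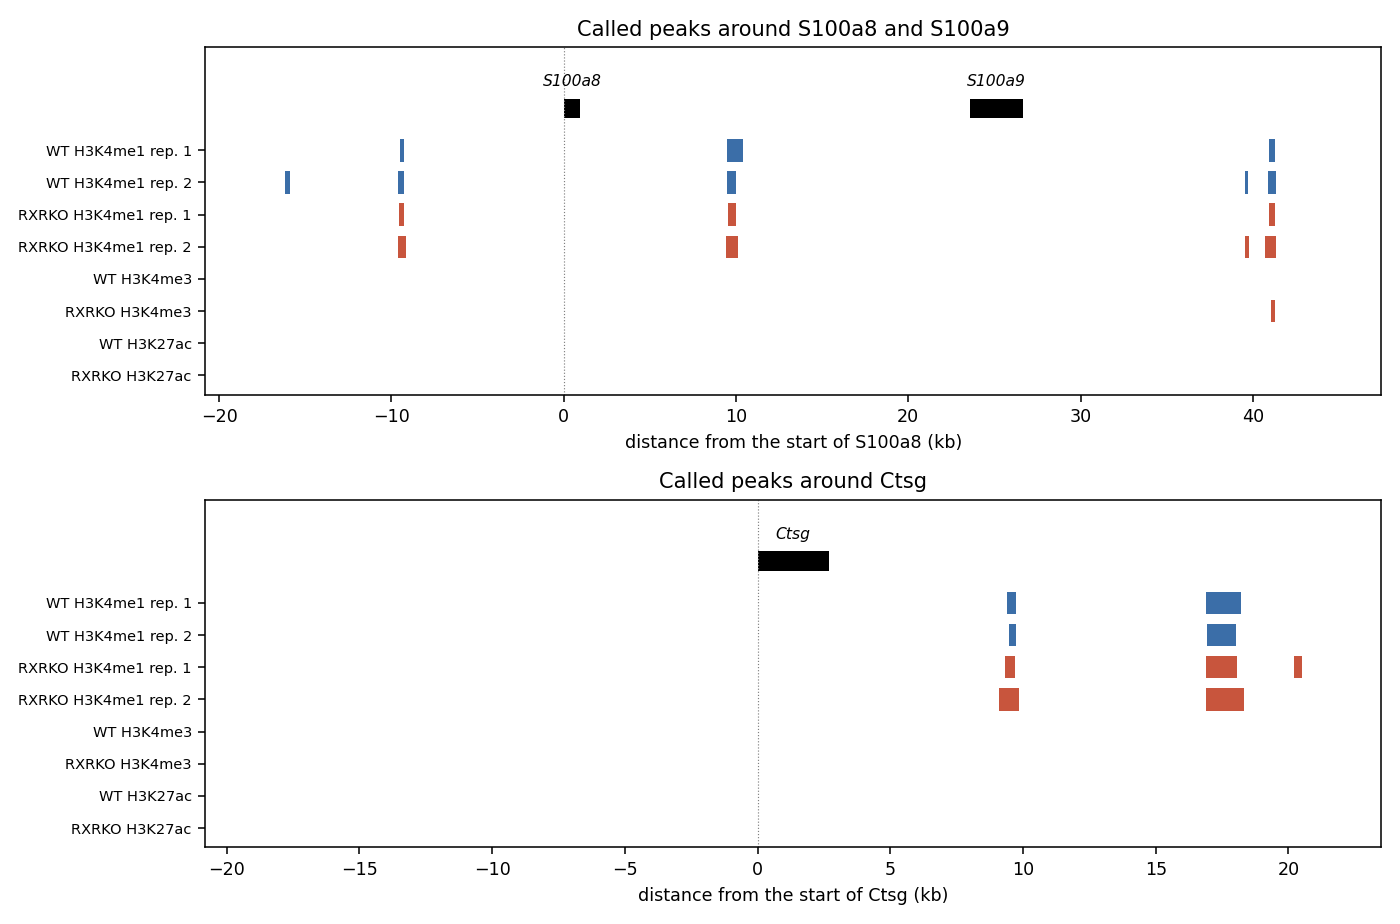
Peaks called around S100a8 and S100a9 (top) and around Ctsg (bottom), by distance in kb from the start of S100a8 or Ctsg in the direction of its transcription; each row is 1 library, bars are called peaks (blue WT, red RXRKO) and black bars are the genes. H3K4me1 is the only mark called in both genotypes, no WT library has an H3K4me3 or H3K27ac peak, and no peak touches any of the 3 genes.

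H3K4me1 around the 10 genes was then compared between genotypes as the length covered by peaks in each window, on the scale log2(bp + 1000) centred on each library's median. None of the 10 genes passed limma's moderated test with Benjamini-Hochberg adjustment over 17760 genes (0% called in either direction). The unadjusted p was below 0.05 for 1051 genes. Blocking on replicate, which by the tags in the peak names separates 2 sequencing runs, gave 2 called genes, neither of them among the 10. Of the 10 differences 4 were above 0 and 6 below, with a median of -0.024, beside -0.0044 over all genes tested. These are not 10 separate differences. The windows of Elane and Prtn3 share 36863 bp, and those of S100a8 and S100a9 share 17405 bp. After centring, both RXRKO libraries were above both WT libraries for 3 genes (Ctsg, Ngp and Lcn2), against 15.7% of all genes. Both were below for 2 genes (Mpo and S100a8), against 17.6%.

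Lcn2 had the largest H3K4me1 difference of the 10 under the main settings. Ctsg was larger with windows of 50 kb (0.337, against 0.203 for Lcn2), and S100a8 was larger in size with a pseudocount of 100 bp (-0.36, against 0.346), without WT replicate 2 (-0.257, against 0.216) and without RXRKO replicate 1 (-0.21, against 0.205). The covered length of Lcn2 was 4497 and 4198 bp in WT and 5714 and 5927 bp in RXRKO. The groups did not overlap, and the log2 difference was 0.29 ± 0.11 (SE, n = 2 libraries each; limma adjusted p = 0.739). With the replicate block the SE was 0.0896 and the limma adjusted p was 0.376. The log2 difference was 0.30 within replicate 1 and 0.28 within replicate 2, which the peak names place in different sequencing runs. The added length lay in peaks that overlap 1110008P14Rik and Ptges2 in both RXRKO libraries, and at the Lcn2 start in replicate 2 alone.

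The primary granule genes differed less. Mpo had 5783 and 6159 bp in WT and 5432 and 5992 bp in RXRKO, overlapping before centring, with a log2 difference of -0.115 ± 0.092 (SE; limma adjusted p = 0.988). Prtn3 had 5541 and 6413 bp in WT and 5509 and 7207 bp in RXRKO, a difference of 0.01 ± 0.095 (SE; limma adjusted p = 0.998). Elane, over largely the same peaks, had a difference of -0.029 ± 0.093. Ctsg had 1652 and 1363 bp in WT and 1843 and 2190 bp in RXRKO, with a difference of 0.21 ± 0.15 (limma adjusted p = 0.969). For all 4 the difference was under 2 standard errors.

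Among the secondary granule genes, Ltf had 7922 and 7033 bp in WT and 7200 and 7989 bp in RXRKO. Its difference of -0.039 ± 0.097 changed sign between replicates (-0.106 and 0.028). Camp had 2660 and 2743 bp in WT and 2772 and 2840 bp in RXRKO (difference -0.019 ± 0.13). Both RXRKO lengths of Camp were above both WT lengths before centring, and its difference was 0.059 within replicate 1, -0.097 within replicate 2 and 0.040 without centring. Ngp had 4333 and 4893 bp in WT against 4766 and 5964 bp in RXRKO (difference 0.12 ± 0.098). The alarmins had the shortest covered lengths of the 10. S100a8 had 1206 and 1205 bp in WT and 813 and 1144 bp in RXRKO (difference -0.22 ± 0.16, limma adjusted p = 0.972). S100a9 had 1222 and 1139 bp in WT and 841 and 1594 bp in RXRKO, with WT inside the RXRKO range. Its difference of -0.056 ± 0.17 was -0.26 within replicate 1 and 0.14 within replicate 2.

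**Figure D4:**
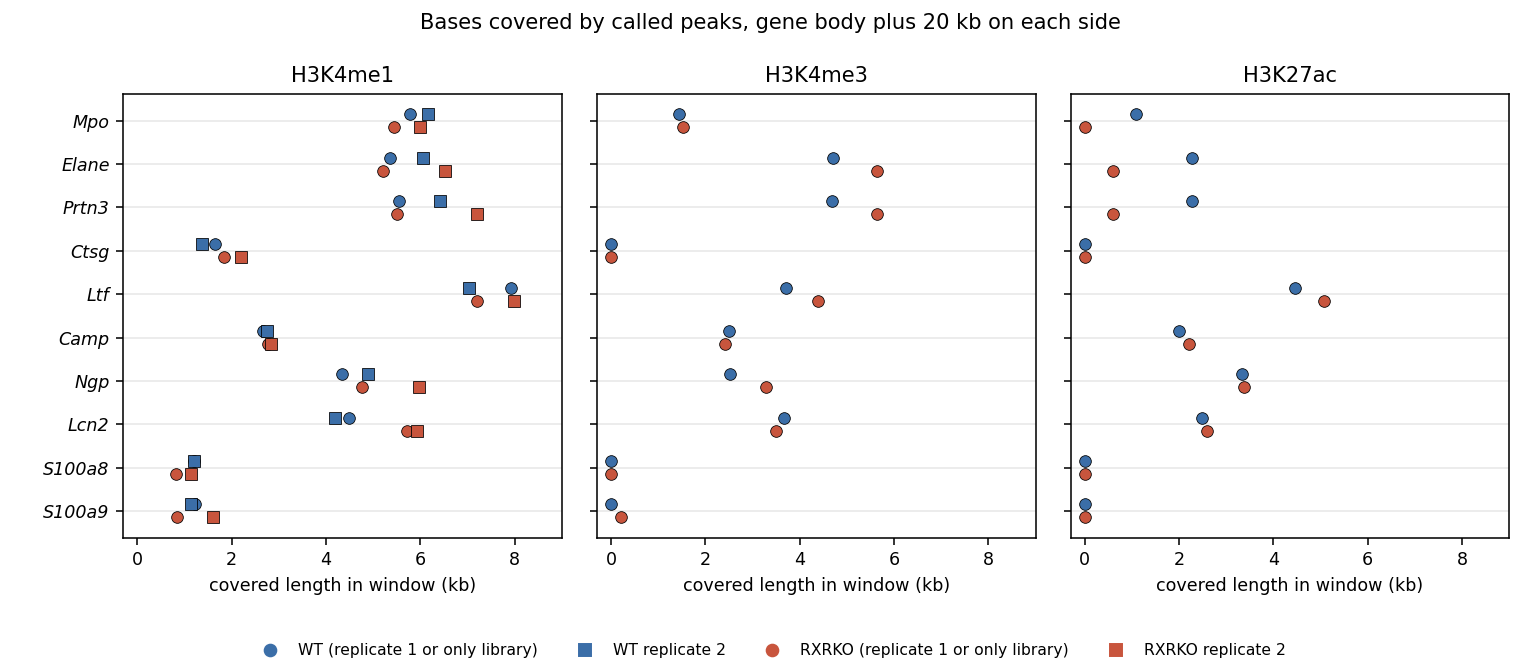
Length covered by called peaks, in kb, in the window of each of the 10 genes (gene body plus 20 kb on each side), for H3K4me1, H3K4me3 and H3K27ac; each point is 1 library, blue WT and red RXRKO, circles replicate 1 or the only library and squares replicate 2. The genotypes overlap or lie close for most genes, H3K4me1 at Lcn2 is longer in both RXRKO libraries (5714 and 5927 bp against 4497 and 4198 bp), and H3K27ac at Mpo, Elane and Prtn3 is shorter in RXRKO.

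H3K4me3 covered length differed little between the 2 libraries. Of 7 genes with a mean of at least 1000 bp, none was past 1.5 times in either direction, against 1.11% of genes higher and 0.108% lower in RXRKO. Their log2 differences ran from -0.17 (Lcn2, 3661 bp in WT and 3493 bp in RXRKO) to 0.16 (Ngp, 2520 and 3278 bp). Ctsg and S100a8 had 0 bp in both genotypes, and S100a9 had 0 bp in WT and 216 bp in RXRKO. For H3K27ac, 6 genes were measured. The 2 that share a window, Elane and Prtn3, were past 1.5 times lower and none was past 1.5 times higher (1.29% of all genes measured), and the other 4 lay between 0.089 (Ngp) and 0.24 (Ltf). At 50 kb Ngp and Ltf turned to -0.074 and -0.010.

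**Figure D5:**
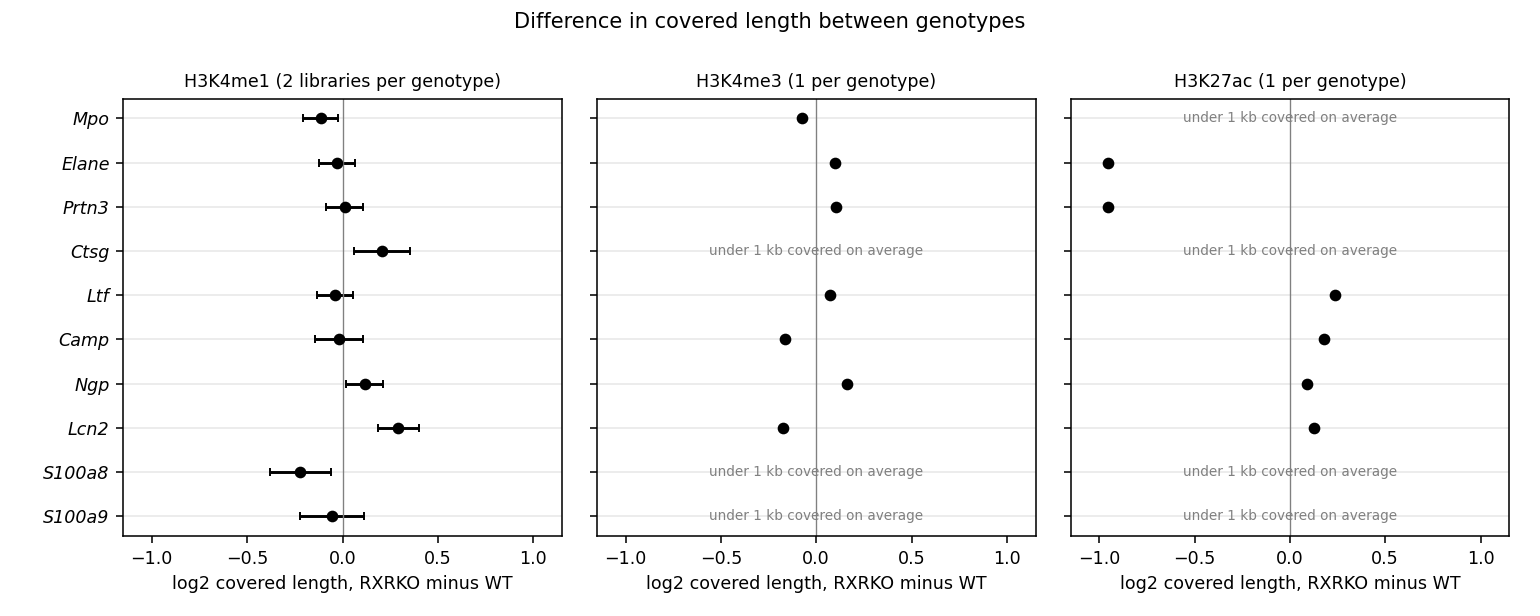
Difference in covered length between genotypes (RXRKO minus WT, on the scale log2(bp + 1000), centred on each library's median) for each of the 10 genes and each mark; bars for H3K4me1 are 1 SE from the limma fit with 2 libraries per genotype, and H3K4me3 and H3K27ac, with 1 library each, have no error. Elane and Prtn3 stand at -0.95 for H3K27ac, and genes with under 1000 bp covered on average have no point.

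The H3K27ac peaks called in WT alone were weak ones. Over the 10 windows, 9 of 22 WT H3K27ac peaks (40.9%) had no overlapping RXRKO peak, where the share over the genome was 26.7%. All 9 had a -log10 q below the median of the WT list, 9.016. They made up 9 of the 12 such peaks (75%), where the share of WT peaks below that median without a counterpart was 47.9% over the genome. None of the 10 stronger peaks in the windows lacked a counterpart (5.57% over the genome). By gene, they were 3 of 3 WT peaks at Mpo, 5 of 6 at Prtn3 and 1 of 3 at Lcn2, and none of the 10 at Ltf, Camp and Ngp. In the other direction 1 of 14 RXRKO H3K27ac peaks lacked a WT counterpart, against 16.6% over the genome. For H3K4me3, 1 of 19 WT peaks (5.31% over the genome) and 5 of 21 RXRKO peaks (23% over the genome) lacked a counterpart. These too were below the median -log10 q of their lists. They were 1 of 9 such WT peaks (11.1%, against 10.5% over the genome) and 5 of 11 such RXRKO peaks (45.5%, against 45.4%). The lower genome background of the RXRKO H3K27ac library (0.878 times WT) moved with the H3K27ac difference, and its part in it was not tested.

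Single H3K4me1 regions were mostly shared. Peaks of the 4 libraries merged into 60 regions in the 10 windows, of which 41 (68.3%) were called in 4 of 4 libraries, against 61.8% of 181242 regions genome-wide. Of the 60, 8 lay within 1 kb of the start of one of the 10 genes, 5 elsewhere in their bodies, 11 at the start of another gene, 12 in the body of another gene and 24 between genes. Both genotype-specific regions were in the Ltf window. The region chr9:111048686-111048944 was called in both RXRKO libraries (folds 2.36 and 2.21, 57 and 84 fragments) and in no WT library. The region chr9:111059163-111059656, near Ccrl2, was called in both WT libraries (folds 2.32 and 2.54, 66 and 81 fragments) and in no RXRKO library. Each kind made up 1.67% of the regions in the windows, against 2.17% (RXRKO alone) and 1.94% (WT alone) over the genome.

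Other genes of the neutrophil programme were compared in the same fit. Of 29 other granule genes, 28 were tested for H3K4me1 and none passed limma's adjusted test; 14 were above 0 and 14 below, with a median of 0.0042. The lowest was Retnlg, which encodes a resistin-like protein of neutrophils, with 1774 and 2275 bp in WT and 436 and 0 bp in RXRKO. Its log2 difference was -1.39 ± 0.24 (SE; limma adjusted p = 0.124), and the groups did not overlap. The next lowest were Olfm4 (-0.18) and Mmp8 (-0.12), and the highest were Cd63 (0.19), Serpinb1a (0.18) and Cd177 (0.18). H3K4me1 marked 18 and 20 of these 29 starts in WT (62.1% and 69%, against 68.6% and 71.3% of all genes) and 19 and 20 in RXRKO (65.5% and 69%, against 68.2% and 71.4%), shares close to those of all genes. For H3K27ac none of 21 measured genes of this list was past 1.5 times in either direction (1.29% of all genes higher and 1.84% lower). For H3K4me3, 2 of 20 were past it, both higher in RXRKO, where 1.11% of all genes were higher and 0.108% lower: Slpi, a protease inhibitor (507 bp in WT and 2175 bp in RXRKO), and the integrin gene Itgam (1574 and 3352 bp), named after their values were seen.

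Genes for transcription factors, receptors and other regulators of granulopoiesis were marked at most starts in both genotypes. Of 17 such genes, H3K4me1 marked 15 and 17 starts in WT and 15 and 17 in RXRKO, H3K4me3 marked 15 in each genotype, and H3K27ac marked 17 in WT and 15 in RXRKO. The shares over all genes were 68.2% to 71.4% for H3K4me1, 67.1% and 67.7% for H3K4me3, and 61% and 57.9% for H3K27ac. None passed limma's adjusted test for H3K4me1 (9 above 0, 8 below, median 0.011). The lowest were Cebpd (-0.26), the chemokine receptor gene Cxcr4, whose product holds neutrophils in the marrow (-0.25), and Klf5 (-0.175). The highest were Xbp1 (0.15), Spi1, which encodes PU.1 (0.11), and Csf3, which encodes the growth factor G-CSF (0.11). For H3K27ac 1 of 17 was past 1.5 times, lower in RXRKO as were 1.84% of all genes (1.29% were higher). It was the monocyte lineage factor gene Irf8, named after its value was seen, with 4555 bp in WT and 2393 bp in RXRKO (log2 difference -0.63).

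Genes for receptors, partners and carriers of the granule proteins showed no called H3K4me1 difference either. Of 11 tested, 4 were above 0 and 7 below, with a median of -0.038. The lowest was Bsg, which encodes basigin, a receptor of S100A9, with 8628 and 8500 bp in the WT libraries against 6507 and 7444 bp in the RXRKO libraries, which did not overlap. Its log2 difference was -0.32 ± 0.084 (SE; limma adjusted p = 0.444). For H3K27ac, 2 of the 11 were past 1.5 times, both higher in RXRKO as were 1.29% of all genes (1.84% were lower): the formyl peptide receptor genes Fpr1 (1568 and 2722 bp) and Fpr2 (2136 and 3798 bp). Whether these 2 windows hold the same peaks was not examined, so they may not be separate differences.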

How the data were processed

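CUT&RUN libraries of H3K4me1 (2 WT, 2 RXRKO), H3K4me3 and H3K27ac (1 each per genotype) were analysed as the peak lists the authors deposited, 1 per library, so no peaks were called on pooled libraries. Per the submitters' processing notes, cutadapt 1.7.1, Bowtie2 2.2.5, MACS3 and mm10 were used; no source used here gives the peak-calling settings or any control. The deposited lists give, per peak, a score (10 times the -log10 q), a fold over local background (a ratio) and -log10 p-values and q-values, and these are the authors' own values. From fold and p-value, pileup and local background were recovered; 100% of up to 3000 sampled peaks per library gave whole fragments within 0.02.

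Peaks were summed as covered bp per window (gene body plus 20 kb) and compared as log2(bp + 1000), centred on the library median, over genes with a mean of at least 1000 bp. H3K4me1 was tested with limma 3.58.1 (lmFit, eBayes with trend, no block), in R 4.3.3, with Benjamini-Hochberg adjustment; adjusted p under 0.05 was called. H3K4me3 and H3K27ac have no test, and 1.5 times marks a difference. On simulated data with the H3K4me1 design (17707 genes), 99 of 100 genes changed by log2 1 and 97 of 100 changed by log2 2 were called. The simulated spread was the same for all genes and came from the WT libraries. These counts therefore do not tell how many real changes of such sizes would be called. Retnlg, with a log2 difference of -1.39, was not called. Regions are H3K4me1 peaks of the 4 libraries merged where they overlap. Gene positions, starts and promoter sequences come from RefSeq tables (GRCm38.p6, the same coordinates as mm10); all 10 genes had a RefSeq start, and 17274 genes did in all. Other genes took the end with more H3K4me3, or both ends where neither had more.

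The sample labels do not say what the replicate number marks. Tags in the peak names place both H3K4me1 replicate 1 libraries in 1 sequencing run and the other 6 libraries in another. By these tags, each H3K4me1 replicate number goes with a run that holds both genotypes. The differences between replicates correlated between genotypes (r = 0.21 over 17760 genes; genes are not independent of each other).

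The 10 genes and all lists were chosen with earlier results of these data known. Named genes are the 10, genes at or under their peaks, the 3 highest and 3 lowest H3K4me1 differences of each list, and regions called in both libraries of 1 genotype alone; genes outside this rule are said to be so or are marker genes. Alternatives were other peak thresholds, windows, scaling, pseudocount, filter, replicate block and leaving out each library; the window of 2 kb was chosen after seeing the data.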

Additional observations from a re-analysis of the deposited data

How the results depend on the processing

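None of the 10 genes passed limma's adjusted test in the main fit, and the number of genes called over the genome was 2 with peaks of -log10 q of at least 5, 65 without centring, 204 without the filter on covered length and 2 with the replicate block, and 0 with folds of at least 4, equal numbers of peaks, windows of 2, 5 or 50 kb, or a pseudocount of 100 bp. Leaving out 1 library gave 0 to 98 called genes: 88 and 13 when WT replicates 1 and 2 were dropped in turn, 98 and 0 when RXRKO replicates 1 and 2 were; the spread of a lone library is taken from the other genotype.

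Small H3K4me1 differences changed sign. Elane became 0.096 at -log10 q of at least 5, 0.171 at fold 4, 0.057 at 5 kb, 0.024 at 50 kb, 0.030 without centring and 0.036 at 2 kb. Prtn3 became -0.016 with equal numbers of peaks. Ltf became 0.145, 0.033 and 0.020, and Camp 0.157, 0.0094 and 0.040, at fold 4, 50 kb and without centring. Ngp became -0.207 at fold 4, and S100a9 0.0034 without centring. Leaving out 1 library gave -0.164 to -0.066 (Mpo), -0.07 to 0.011 (Elane), -0.048 to 0.068 (Prtn3), 0.089 to 0.325 (Ctsg), -0.15 to 0.071 (Ltf), -0.116 to 0.077 (Camp), 0.08 to 0.154 (Ngp), 0.205 to 0.379 (Lcn2), -0.257 to -0.186 (S100a8) and -0.194 to 0.082 (S100a9). Ctsg was 0.337 at 50 kb, and S100a8 was -0.36 with a pseudocount of 100 bp. The causes were not tested.

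H3K27ac at Elane and Prtn3 moved from -0.95 to -1.62 at -log10 q of at least 5 and -1.66 with a pseudocount of 100 bp. The highest -log10 q of the RXRKO peaks there was 3.04, so -1.62 sets the WT peaks against no RXRKO peak. There was no value at fold 4, since the highest fold was 3.81 in WT and 2.67 in RXRKO, nor at 2 or 5 kb. At 50 kb the difference was -0.299 at Elane and -0.383 at Prtn3, no longer past 1.5 times. Among values under 1.5 times, H3K4me3 turned to -0.071 at Elane and -0.040 at Prtn3 at 50 kb and to 0.045 at Mpo without centring, and H3K27ac turned to -0.010 at Ltf and -0.074 at Ngp at 50 kb. Taking the other end of each gene as its start left 1 marked start per genotype for H3K4me1, 1 for H3K4me3 and 0 for H3K27ac. H3K4me3 in WT marked 1 start at -log10 q of at least 5, at fold 4 and within 250 bp, and in RXRKO 1 within 250 bp. H3K27ac in WT marked 1 at fold 4 and 4 within 2 kb, and in RXRKO 2 within 2 kb. H3K4me1, counted where both libraries of a genotype had a peak, marked 2 at fold 4 and 4 within 2 kb in each genotype. Regions called in RXRKO alone were 2 at -log10 q of at least 5, 0 at fold 4 and 2 where a library had to cover 50% of a region, and those in WT alone 2 at fold 4 and 0 under that 50% rule; leaving out 1 library gave 1 to 6 and 1 to 5.

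Genes whose mean fell under 1000 bp under an alternative have no value there. For H3K4me1 these were Camp, Ctsg, Ngp, S100a8 and S100a9 at 5 kb and 2 kb, and Lcn2 at 2 kb. S100a8 also had none at -log10 q of at least 5, and S100a8 and S100a9 had none at fold 4. Signal below the calling limit of a library was not detectable here.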
